A study of Homo sapiens with 6 samples.

Results

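The genes described here are 60 genes of the mitotic machinery: the cyclins and kinases that drive entry into mitosis, the spindle checkpoint and kinetochore, and the factors that separate chromosomes and daughter cells. They were taken as the rows of the deposited gene table whose gene name is on that list, and all 60 were found among 58302 genes, with 1 row each. The libraries came from MDA-MB-231-DR, a doxorubicin-resistant derivative of MDA-MB-231, a line of triple-negative breast carcinoma. The groups were control cells (3 libraries) and cells treated with cyperotundone (CYT), a compound of Cyperus rotundus (3 libraries), and the CYT dose and time for these libraries are not given in the sources used here. The study's methods state that the resistant line was kept in medium with a low concentration of doxorubicin, and do not say whether the drug was present in the sequenced cultures. Nothing in the labels says whether the line is 1 clone or whether the replicates were separate cultures. The study's methods speak in general of independent experiments, without naming the sequenced libraries, and if these were not separate cultures the p-values measure only a technical spread. The characteristics label gives the cell line as MDA-MB-231, and the titles as MDA-MB-231-DR.

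Progress through mitosis is driven by CDK1 bound to cyclin A or B. The CDC25 phosphatases switch CDK1 on, and WEE1 and PKMYT1 hold it off. The spindle checkpoint (BUB and MAD proteins, TTK) delays separation until kinetochores are attached, and then the anaphase-promoting complex, an E3 ubiquitin ligase, marks cyclin B and securin for destruction. Many of these genes are transcribed mainly in G2 and M phase, through promoter elements that include CCAAT boxes and the cell cycle homology region, TTTGAA.

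The RNA was measured by mRNA sequencing, as raw read counts per gene with summed gene counts of 14050849 to 17770102 in control and 13056270 to 14106017 in CYT libraries. Levels are given as TMM-normalized CPM (counts scaled to library size) unless FPKM, which is also scaled to gene length, is named. In a culture measured as a whole, fewer cells in mitosis and less RNA per mitotic cell cannot be told apart. The line's marker VIM was present at 911 to 2742 CPM in all libraries, and ESR1 and PGR, 2 of 4 genes listed as low or absent in this line, reached at most 0.213 and 0.238 CPM. Of the other 2, CDH1 was at 0 in control and at 0.159 to 1.14 CPM in CYT libraries, and ERBB2 was at 38.3 to 82.3 CPM in control and 16.8 to 51.9 CPM in CYT libraries. Of 6 genes known to be expressed in MDA-MB-231, 3 (VIM, EGFR and AXL) were lower after CYT treatment, of which VIM and EGFR were called in all 15 alternatives and AXL in 7, and the sum of the 6 was 4627 to 4996 CPM in control and 2294 to 2444 CPM in CYT libraries. For MCF7 markers, TFF1 reached at most 0.682 CPM and the summed list went from 213 to 424 CPM in control to 23.6 to 49.3 CPM in CYT libraries, of which KRT19 was 201 to 417 CPM and 10.46 to 38.5 CPM. GATA3 was at 4.46 to 4.95 CPM in control and 2.47 to 3.27 CPM in CYT libraries. FOXA1 was at 2.11 to 7.51 CPM in control and 2.78 to 9.4 CPM in CYT libraries. Markers of MCF10A summed to 3.78 to 5.22 CPM, and KRT5, KRT14 and KRT6A were at 0 in control and reached at most 0.874 CPM (KRT5) in CYT libraries. TP63 was at 0.799 to 1.49 CPM in control and 0.282 to 2.42 CPM in CYT libraries. COL17A1 was at 2.29 to 4.42 CPM in control and 1.35 to 3.31 CPM in CYT libraries. Genes of the mitochondrial genome took 2.41% to 3.58% of counts in control and 3.46% to 8.56% in CYT libraries. Antisense genes took 0.253% to 0.291% and 0.553% to 0.573%. The part of these shifts in the mitotic genes' values was not tested.

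The DNA just before the start of these genes is shown first, because these promoter elements were present in many but not all of the members. RefSeq promoter sequences (build GRCh38.p14) were matched by symbol for 50 of the 60 genes. WEE1, PKMYT1, AURKA, TTK, BIRC5, BUB3, KNL1, UBE2C, TPX2 and RACGAP1 have no entry. The 120 bases before the start annotated in RefSeq are given 5′ to 3′ on the gene's strand for 7 genes. This start is not always that of the gene coordinates deposited with the counts. By those coordinates the PLK1 window lies inside the gene (23677656 to 23690367), and the windows of BUB1B, CCNB2 and CDC20 run past the gene start. PLK1, BUB1B, CCNB2, CDC20 and NCAPH were lower after CYT treatment and MKI67 and CKS2 were not called, and the genes were chosen after their values were seen. Capitals mark TTTGAA and CCAAT on either strand, where the other strand reads TTCAAA and ATTGG.
PLK1 (chr16:23678769-23678888, plus strand): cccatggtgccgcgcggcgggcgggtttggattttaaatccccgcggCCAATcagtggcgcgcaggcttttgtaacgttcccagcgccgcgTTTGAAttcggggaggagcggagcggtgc
BUB1B (chr15:40160949-40161068, plus strand): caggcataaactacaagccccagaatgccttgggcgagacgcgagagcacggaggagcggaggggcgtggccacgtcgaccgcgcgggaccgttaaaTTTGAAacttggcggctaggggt
CCNB2 (chr15:59105026-59105145, plus strand): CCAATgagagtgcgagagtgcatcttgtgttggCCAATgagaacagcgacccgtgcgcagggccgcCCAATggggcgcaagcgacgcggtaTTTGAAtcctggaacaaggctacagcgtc
CDC20 (chr1:43358861-43358980, plus strand): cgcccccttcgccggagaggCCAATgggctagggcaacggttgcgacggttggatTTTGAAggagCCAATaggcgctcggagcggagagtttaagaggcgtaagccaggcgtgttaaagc
NCAPH (chr2:96335646-96335765, plus strand): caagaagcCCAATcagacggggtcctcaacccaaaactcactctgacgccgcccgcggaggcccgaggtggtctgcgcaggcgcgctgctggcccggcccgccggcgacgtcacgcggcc
MKI67 (chr10:128126424-128126543, minus strand): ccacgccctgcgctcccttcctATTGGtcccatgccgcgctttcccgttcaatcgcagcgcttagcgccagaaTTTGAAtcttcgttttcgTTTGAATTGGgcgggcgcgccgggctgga
CKS2 (chr9:89311075-89311194, plus strand): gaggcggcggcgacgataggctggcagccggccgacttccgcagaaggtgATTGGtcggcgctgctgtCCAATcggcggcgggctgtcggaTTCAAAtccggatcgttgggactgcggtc
In PLK1, CCNB2 and, on the other strand, CKS2 the TTTGAA element begins at position -29, counted from the start, and in CCNB2 it follows CCAAT boxes at -120, -87 and -54. MKI67 holds TTTGAA at -47 and -29, and the latter shares its last base with an ATTGG. BUB1B has TTTGAA but no CCAAT in 250 bases, and NCAPH has CCAAT but no TTTGAA.
In the 250 bases before the start, TTTGAA on either strand was present in 27 of the 50 members (54.0%), against 16.1% of 27305 genes with an entry and 11.7% of the 10513 of them that were tested here. CCAAT was present in 40 of 50 members (80%), against 37.0% of all genes with an entry and 41.3% of those tested. Neither element was more frequent in the members called lower than in the others. TTTGAA was present in 9 of 18 (50%) of those called lower and in 18 of 32 (56.2%) of those not called, and CCAAT in 13 of 18 (72.2%) and 27 of 32 (84.4%). A match of letters is not a binding site, and a gene with several annotated starts was counted when any of its windows held the motif.

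After CYT treatment, 21 of the 60 mitotic genes were lower and 0 were higher by the quasi-likelihood test of edgeR, with Benjamini-Hochberg adjustment over all 15572 genes tested (adjusted p under 0.05). The 21 include the mitotic cyclins, PLK1, AURKB, BUB1B, NUF2 and both coactivators of the anaphase-promoting complex. Of all tested genes, 12.9% were called lower and 15.7% higher. All 60 genes passed the filter on low counts, and all 21 called genes had a log2 fold change below -1, a criterion that 12.2% of tested genes met in that direction. The median log2 fold change of the 60 genes was -0.67, against 0.0064 over all tested genes, and 46 of the 60 had a negative value, against 49.7% of all tested genes. In 30 members the CYT libraries all lay below the controls, which include the 21, and this held for 22.7% of tested genes. The reverse held in 1 member, CDC25C, and in 23.4% of tested genes. For such a gene, an exact permutation test of 3 libraries against 3 gives a two-sided p of 0.1, the smallest possible. At an unadjusted p under 0.05, 28 members were lower and 1, CDK1, was higher, against 19.4% and 21.5% of tested genes. With the replicate number as a block, 28 were called lower and 3 (CDK1, CENPN and SMC2) higher, against 19.8% and 20.0% of tested genes. After correcting for gene length and GC content, 37 were lower and 2 higher, against 23.1% and 23.5%. The members that this correction added to the lower ones were CCNF, NEK2, TTK, CDCA8, NDC80, CENPA, CENPF, CENPW, SGO1, ESPL1, ANAPC1, TPX2, ECT2, CEP55, DLGAP5 and NCAPG, and those called higher were CDK1 and SMC2. With the block as well, BIRC5 and ZWINT were also called lower and CENPN higher, and CCNF, ANAPC1 and DLGAP5 were not called. DESeq2 called 21 lower and 1 higher, against 15.1% and 18.8%.
The other settings gave the following counts beside their own background. With upper-quartile normalization, 21 members were lower and 1 higher, against 10.4% and 18.5% of tested genes. With no filter on low counts, 21 members were lower and 0 higher, against 6.81% and 9.2% of tested genes. With limma on log2(FPKM + 1), 20 members were lower and 0 higher, against 13.0% and 15.2% of tested genes. With limma on log2(FPKM + 0.1), 20 members were lower and 0 higher, against 12.7% and 15.7% of tested genes. With the GC content and length correction and the block together, 36 members were lower and 3 higher, against 22.8% and 23.0% of tested genes. Leaving out control replicate 1, 2 or 3 gave 18, 17 and 15 members lower, against 7.41%, 10.2% and 7.36% of tested genes, and 0, 1 and 0 higher, against 10.9%, 13.1% and 10.3%. Leaving out CYT replicate 1, 2 or 3 gave 15, 29 and 13 members lower, against 8.48%, 17.0% and 7.63% of tested genes, and 0, 1 and 0 higher, against 12.3%, 18.6% and 12.2%.

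**Figure D1:**
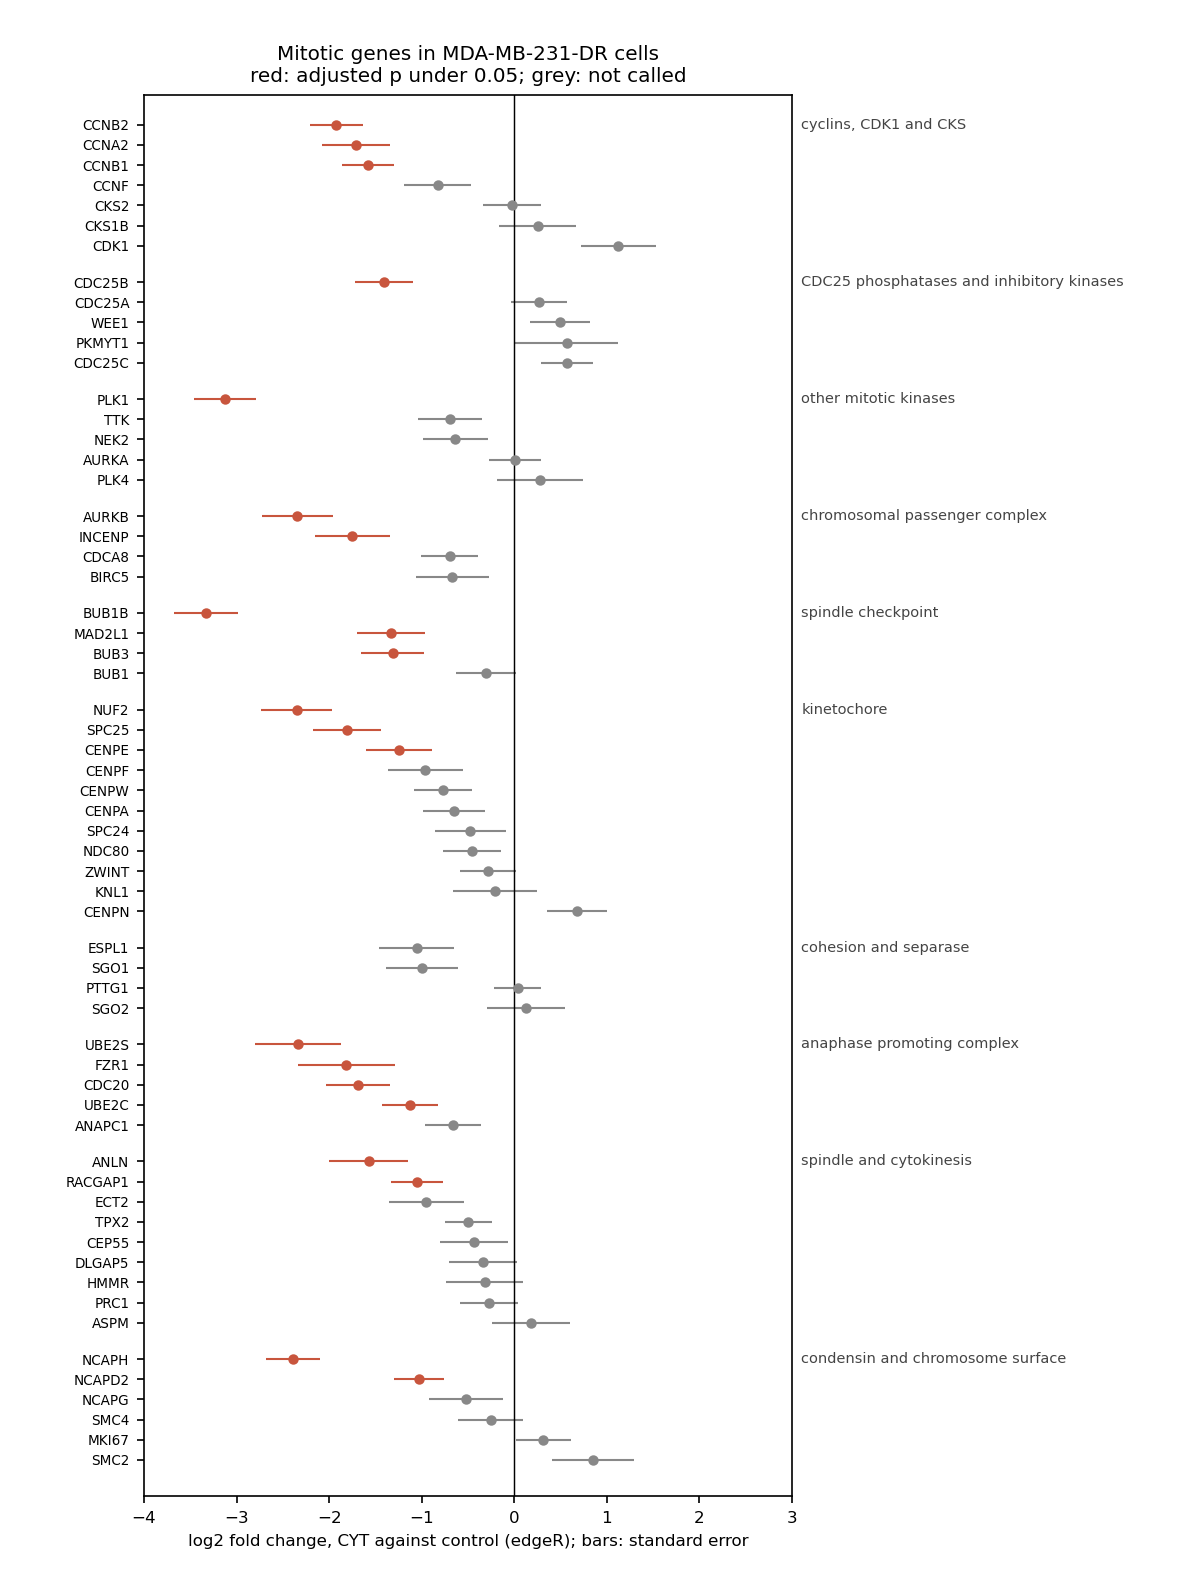
Log2 fold change of CYT against control for the 60 genes, grouped by role, with edgeR's standard error as bars; red points have an adjusted p under 0.05 and grey points do not. The 21 red points lie between -3.33 and -1.03, and no red point lies above 0.

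The 60 genes together held 0.678%, 0.809% and 0.714% of all gene counts across control libraries 1, 2 and 3, against 0.437%, 0.585% and 0.414% across the CYT libraries. The mean was 0.734 ± 0.0679% (SD, n = 3) in control and 0.479 ± 0.0931% (SD, n = 3) in CYT libraries. The groups did not overlap. Without UBE2S, the member with the most reads, the shares were 0.656 ± 0.0821% (SD, n = 3) and 0.463 ± 0.101% (SD, n = 3). The groups then nearly touched, with control replicate 1 at 0.582% and CYT replicate 2 at 0.579%.

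**Figure D2:**
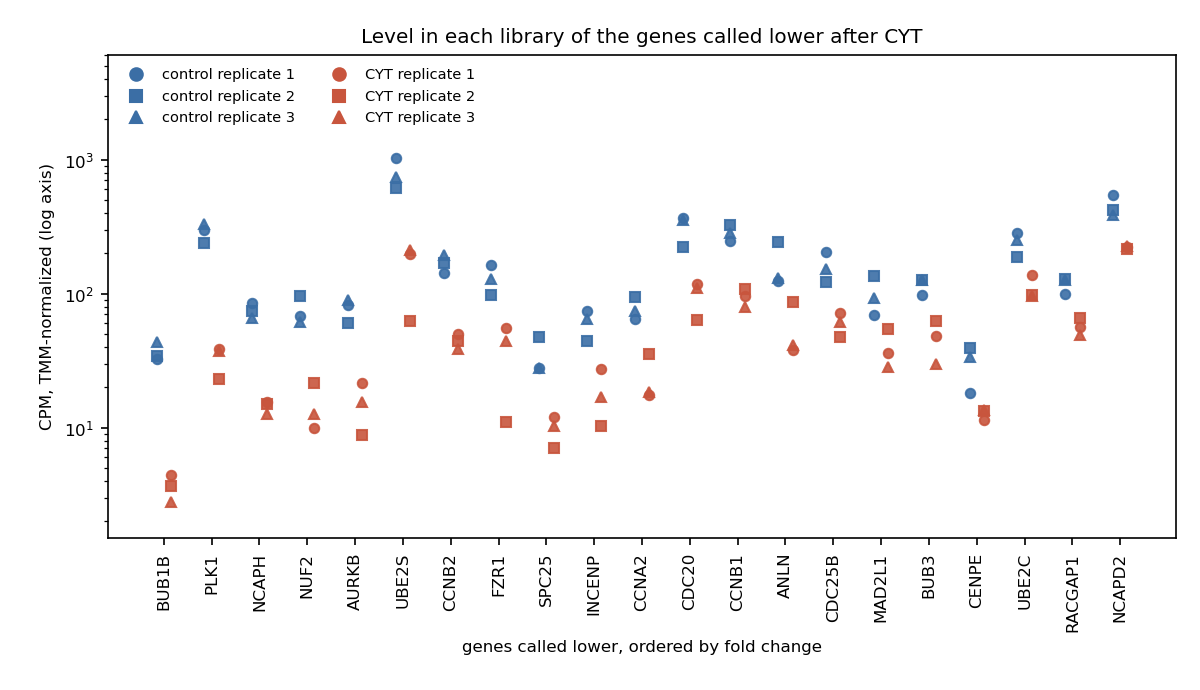
CPM on a log axis in each of the 6 libraries for the 21 genes called lower, ordered by fold change, with control in blue, CYT in red and the replicate number as the marker shape. In each gene every red point lies below every blue point, and the gap is widest for BUB1B and PLK1, at the left.

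Among the cyclins, CDK1 and their CKS partners, the mitotic cyclins were lower while the kinase they activate was not. Of these 7 genes, 3 were called lower and 0 higher. CCNB1, the main cyclin of mitotic entry, was at 245, 324 and 284 CPM across control libraries 1, 2 and 3, against 95.9, 109 and 79.9 CPM across CYT libraries 1, 2 and 3. It fell by 1.58 log2 units (SE 0.28, edgeR adjusted p = 0.00354). CCNB2, the Golgi-associated B cyclin, was at 142, 169 and 194 CPM in control and 50.4, 44.6 and 38.4 CPM in CYT libraries, and it fell by 1.92 log2 units (SE 0.29, edgeR adjusted p = 0.00189). CCNA2, the cyclin of S and G2 phase, was at 64.2, 94.7 and 73.98 CPM in control and 17.6, 35.3 and 18.4 CPM in CYT libraries (log2 fold change -1.71, SE 0.37, edgeR adjusted p = 0.00777). In all 3 cyclins the groups were well apart, and CYT replicate 2 was the nearest to control for CCNA2 and CCNB1. CCNF, a cyclin-like F-box protein, was at 149.9, 85.5 and 87.6 CPM in control and 63.1, 39.4 and 79.4 CPM in CYT libraries, with no overlap between the groups, and was not called (log2 fold change -0.83, edgeR adjusted p = 0.119). With the replicate block it was called lower (log2 fold change -0.84, edgeR adjusted p = 0.0454).
CDK1, the catalytic subunit, had a positive log2 fold change. It was at 221, 420.0 and 236 CPM across control libraries 1, 2 and 3, against 402, 977 and 532 CPM across CYT libraries 1, 2 and 3 (log2 fold change 1.12, SE 0.40, edgeR adjusted p = 0.0636). Its groups overlapped, because control replicate 2 was above CYT replicate 1, although each CYT library was above the control library of the same number. CDK1 missed the threshold in this test but was called higher in 7 of 15 alternatives. These include DESeq2 (adjusted p = 0.0243), edgeR with upper-quartile normalization (adjusted p = 0.0431), blocking by replicate number (log2 fold change 1.09, edgeR adjusted p = 0.00775) and edgeR without both libraries numbered 2 (log2 fold change 1.06, adjusted p = 0.0114). They also include the GC content and length correction (log2 fold change 0.82, edgeR adjusted p = 0.00962). Without CYT replicate 2, CDK1 was not called (log2 fold change 0.66, edgeR adjusted p = 0.154). The CKS proteins, small adaptors of CDK complexes, did not pass the test. CKS2 was at 96.1, 171 and 144 CPM in control and 155, 114 and 135 CPM in CYT libraries (log2 fold change -0.03, edgeR adjusted p = 0.960), and CKS1B at 148, 407 and 235 CPM in control and 236, 453 and 254 CPM in CYT libraries (log2 fold change 0.25, edgeR adjusted p = 0.683). In both genes the groups overlapped.

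Of the 5 regulators of CDK1 phosphorylation, 1 was called lower and 0 higher. CDC25B, the phosphatase that first activates CDK1 at centrosomes, was at 204, 123 and 153 CPM across control libraries 1, 2 and 3, against 72.1, 47.5 and 61.4 CPM across CYT libraries 1, 2 and 3 and fell by 1.41 log2 units (SE 0.32, edgeR adjusted p = 0.0101). The groups were clearly apart. CDC25C, a phosphatase that activates CDK1 at mitotic entry, was higher in every CYT library than in any control library, at 45.1, 51.4 and 55.4 CPM in control and 82.3, 80.7 and 61.8 CPM in CYT libraries, but was not called (log2 fold change 0.57, edgeR adjusted p = 0.159). CDC25A, which also acts in S phase, was at 56.1, 37.96 and 49.5 CPM in control and 58.7, 45.7 and 68.02 CPM in CYT libraries and overlapped (log2 fold change 0.26, edgeR adjusted p = 0.547). The inhibitory kinase WEE1 was at 28.8, 32.2 and 33.7 CPM in control and 39.6, 61.1 and 32.7 CPM in CYT libraries (log2 fold change 0.49, edgeR adjusted p = 0.276). PKMYT1, the membrane-bound inhibitory kinase, was at 75.8, 58.6 and 60.6 CPM in control and 134, 22.2 and 133 CPM in CYT libraries (log2 fold change 0.57, edgeR adjusted p = 0.477), so CYT replicate 2 lay below and CYT replicates 1 and 3 above all controls. Without CYT replicate 2, PKMYT1 was called higher (log2 fold change 1.03, edgeR adjusted p = 0.00902).

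Of 5 other mitotic kinases, 1 was called lower and 0 higher. PLK1, the Polo-like kinase needed for spindle assembly and mitotic entry (ENSG00000166851, chromosome 16 from 23677656 to 23690367 of GRCh38), was at 297, 240.3 and 332 CPM across control libraries 1, 2 and 3, against 38.9, 22.99 and 37.5 CPM across CYT libraries 1, 2 and 3. It fell by 3.13 log2 units (SE 0.33, edgeR adjusted p = 0.000544), an 8.74-fold lower level, with the highest CYT library far below the lowest control library. The remaining 4 were not called. AURKA, the centrosomal Aurora kinase, was at 109.7, 114 and 140.4 CPM in control and 119, 142 and 104 CPM in CYT libraries (log2 fold change 0.01, edgeR adjusted p = 0.989), with the groups interleaved. PLK4, which starts centriole duplication, was at 11.3, 15.8 and 12.7 CPM in control and 11.7, 28.4 and 8.10 CPM in CYT libraries (log2 fold change 0.28, edgeR adjusted p = 0.688). NEK2, which separates centrosomes, was at 25.98, 28.7 and 28.5 CPM in control and 13.8, 26.4 and 13.3 CPM in CYT libraries (log2 fold change -0.64, edgeR adjusted p = 0.199), and TTK, the checkpoint kinase MPS1, at 62.1, 114 and 71.9 CPM in control and 36.3, 60.8 and 55.9 CPM in CYT libraries (log2 fold change -0.70, edgeR adjusted p = 0.159). In NEK2, CYT replicate 2 was at the control level while the other CYT libraries were lower, and in TTK the groups came close without overlapping. Without CYT replicate 2, NEK2 was called lower (log2 fold change -1.04, edgeR adjusted p = 0.0144).

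In the chromosomal passenger complex, which corrects kinetochore attachments and directs cytokinesis, all 4 members had negative log2 fold changes and 2 were called lower. Its kinase AURKB was at 81.6, 60.01 and 90.2 CPM across control libraries 1, 2 and 3, against 21.4, 8.76 and 15.6 CPM across CYT libraries 1, 2 and 3 and fell by 2.34 log2 units (SE 0.39, edgeR adjusted p = 0.00260). INCENP, the scaffold that holds and activates AURKB, was at 73.8, 44.1 and 65.2 CPM in control and 27.3, 10.2 and 16.8 CPM in CYT libraries and fell by 1.75 log2 units (SE 0.41, edgeR adjusted p = 0.0114). Both were lowest in CYT replicate 2, and both were called in all 15 alternatives. The targeting subunits were closer to control. CDCA8 (borealin) was at 136, 114 and 124 CPM in control and 84.3, 52.03 and 93.999 CPM in CYT libraries, without overlap (log2 fold change -0.70, edgeR adjusted p = 0.121), and was called lower with the replicate block (edgeR adjusted p = 0.0451) and with the GC content and length correction (edgeR adjusted p = 0.0148). BIRC5 (survivin) was at 68.1, 138 and 70.3 CPM in control and 46.6, 83.4 and 43.9 CPM in CYT libraries, with overlap (log2 fold change -0.67, edgeR adjusted p = 0.231).

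In the spindle checkpoint, 3 of 4 members were called lower. BUB1B, which encodes BUBR1, the checkpoint subunit that inhibits CDC20, had the lowest log2 fold change of the 60 genes here, close to that of PLK1, which was lower than BUB1B with limma (-2.84 against -1.97 on log2(FPKM + 1)) and without CYT replicate 3 (-3.20 against -3.15). Its raw counts were 524, 640 and 611 across control libraries 1, 2 and 3, against 63, 52 and 35 across CYT libraries 1, 2 and 3, or 32.5, 34.1 and 43.9 CPM across control libraries 1, 2 and 3, against 4.44, 3.70 and 2.78 CPM across CYT libraries 1, 2 and 3. It fell by 3.33 log2 units (SE 0.35, edgeR adjusted p = 0.000520), a 10.1-fold lower level. MAD2L1, the MAD2 protein that binds CDC20, was at 69.8, 136 and 93.3 CPM in control and 35.8, 54.9 and 28.1 CPM in CYT libraries and fell by 1.33 log2 units (SE 0.37, edgeR adjusted p = 0.0250). BUB3, which carries BUB1 and BUBR1 to the kinetochore, was at 97.8, 127 and 127 CPM in control and 48.4, 62.7 and 30.04 CPM in CYT libraries and fell by 1.32 log2 units (SE 0.34, edgeR adjusted p = 0.0179). The groups were apart in all 3, but without CYT replicate 3, among other libraries, MAD2L1 (edgeR adjusted p = 0.0966) and BUB3 (0.0688) were not called. BUB1, the related kinase, was at 96.4, 126 and 108 CPM in control and 67.6, 124 and 75.5 CPM in CYT libraries, overlapped and was not called (log2 fold change -0.31, edgeR adjusted p = 0.509).

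At the kinetochore, the protein platform that binds spindle microtubules, 3 of 11 members were called lower, and they are not the whole of any complex. NUF2, a subunit of the NDC80 complex that contacts microtubules, was at 67.8, 96.1 and 61.4 CPM across control libraries 1, 2 and 3, against 9.87, 21.7 and 12.6 CPM across CYT libraries 1, 2 and 3 and fell by 2.35 log2 units (SE 0.38, edgeR adjusted p = 0.00245). SPC25, a subunit at the inner end of the same complex, was at 27.96, 47.4 and 27.7 CPM in control and 11.99, 7.12 and 10.3 CPM in CYT libraries and fell by 1.81 log2 units (SE 0.36, edgeR adjusted p = 0.00581). The kinesin CENPE, which moves chromosomes to the equator, was at 18.1, 39.4 and 33.5 CPM in control and 11.4, 13.4 and 13.7 CPM in CYT libraries and fell by 1.24 log2 units (SE 0.36, edgeR adjusted p = 0.0276). Its call was lost with limma (adjusted p = 0.0706 on log2(FPKM + 1)) and in 4 of the 6 leave-one-out fits.
The other 2 subunits of the NDC80 complex overlapped between the groups, and NDC80 was called lower only after correction for gene length and GC content (log2 fold change -0.63, edgeR adjusted p = 0.0143, and 0.0244 with the block). NDC80 was at 46.7, 67.6 and 51.2 CPM in control and 35.2, 51.96 and 33.7 CPM in CYT libraries (log2 fold change -0.45, edgeR adjusted p = 0.307), and SPC24 at 48.1, 35.8 and 19.9 CPM in control and 22.9, 18.9 and 32.98 CPM in CYT libraries (log2 fold change -0.47, edgeR adjusted p = 0.388). CENPW, a histone-fold protein, had no overlap at 49.04, 46.4 and 45.9 CPM in control and 19.7, 35.9 and 27.3 CPM in CYT libraries and was not called (log2 fold change -0.77, edgeR adjusted p = 0.0922). With the GC content and length correction its log2 fold change was -1.46 (edgeR adjusted p = 0.00147). CENPF, a large coiled-coil protein of late G2, was at 33.9, 57.6 and 44.6 CPM in control and 17.6, 37.2 and 15.2 CPM in CYT libraries (log2 fold change -0.96, edgeR adjusted p = 0.104), and CYT replicate 2 was the only CYT library within the control range. Without it, CENPF was called lower (log2 fold change -1.48, edgeR adjusted p = 0.00683). The remaining uncalled members were CENPA, the centromeric histone H3 variant (log2 fold change -0.65), the scaffold KNL1 (-0.21), its partner ZWINT (-0.28) and CENPN, which binds CENPA nucleosomes (0.68). CENPA was called lower after correction for gene length and GC content (log2 fold change -1.01, edgeR adjusted p = 0.0139) and without both libraries numbered 2 (log2 fold change -0.76, edgeR adjusted p = 0.0280). With the correction and the block together, ZWINT was called lower (edgeR adjusted p = 0.0435). CENPN was called higher under blocking by replicate number (log2 fold change 0.68, edgeR adjusted p = 0.0466) and, in the same fit, CENPW and CENPF lower (adjusted p = 0.0387 and 0.0143).

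Of the 4 genes that control sister chromatid cohesion and its release, 0 were called, 2 had an unadjusted p under 0.05 and DESeq2 called 0. Securin (PTTG1), which holds separase inactive, was nearly level, at 329, 385 and 375 CPM across control libraries 1, 2 and 3, against 358, 369 and 390.2 CPM across CYT libraries 1, 2 and 3 (log2 fold change 0.04, SE 0.25, edgeR adjusted p = 0.927). Separase itself (ESPL1), the protease that cuts cohesin, was at 102, 57.3 and 62.9 CPM in control and 48.03, 18.8 and 40.3 CPM in CYT libraries (log2 fold change -1.05, edgeR adjusted p = 0.0798). Shugoshin 1 (SGO1), which protects centromeric cohesin, was at 13.5, 21.9 and 14.5 CPM in control and 6.21, 12.4 and 6.44 CPM in CYT libraries (log2 fold change -0.995, edgeR adjusted p = 0.0842). In ESPL1 and SGO1 the groups were apart, and with the replicate block both were called lower (edgeR adjusted p = 0.0111 and 0.0141). Shugoshin 2 (SGO2) was at 28.3, 64.9 and 30.9 CPM in control and 29.6, 64.6 and 41.2 CPM in CYT libraries (log2 fold change 0.12, edgeR adjusted p = 0.853), where the libraries numbered 2 were the highest in both groups.

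Of 5 genes of the anaphase-promoting complex and its enzymes, 4 were called lower, and in all 5 the groups were apart. UBE2S, the ubiquitin-conjugating enzyme that extends chains on its substrates, was the member with the highest control CPM, at 1029.8, 614 and 735 CPM across control libraries 1, 2 and 3, against 198, 61.997 and 211 CPM across CYT libraries 1, 2 and 3. It fell by 2.34 log2 units (SE 0.46, edgeR adjusted p = 0.00557). UBE2C, the enzyme that starts those chains, was at 282, 187 and 253 CPM in control and 137, 97.7 and 96.3 CPM in CYT libraries and fell by 1.13 log2 units (SE 0.30, edgeR adjusted p = 0.0208). Both coactivators were lower. CDC20, the coactivator of metaphase and the target of the checkpoint, was at 366, 223 and 352 CPM in control and 118, 64.1 and 109.8 CPM in CYT libraries and fell by 1.69 log2 units (SE 0.35, edgeR adjusted p = 0.00640). FZR1, the coactivator CDH1 of late mitosis and G1, was at 165, 96.9 and 128 CPM in control and 55.3, 11.03 and 44.4 CPM in CYT libraries and fell by 1.81 log2 units (SE 0.53, edgeR adjusted p = 0.0294). CYT replicate 2 was the lowest library for UBE2S, CDC20 and FZR1, and by a wide margin for UBE2S and FZR1. Without CYT replicate 3, among other libraries, UBE2C (edgeR adjusted p = 0.0856) and FZR1 (0.0680) were not called. The scaffold ANAPC1 was at 33.7, 41.2 and 36.95 CPM in control and 26.7, 26.6 and 17.2 CPM in CYT libraries and was not called (log2 fold change -0.66, edgeR adjusted p = 0.129).

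Among 9 genes of the spindle and of cytokinesis, 2 of those that act at the cleavage furrow were called lower. ANLN (anillin), which links the contractile ring to the membrane, was at 124, 241 and 131 CPM across control libraries 1, 2 and 3, against 38.1, 87.3 and 41.2 CPM across CYT libraries 1, 2 and 3 and fell by 1.57 log2 units (SE 0.42, edgeR adjusted p = 0.0214). RACGAP1, the GTPase-activating subunit of the centralspindlin complex, was at 98.95, 129.5 and 126 CPM in control and 56.7, 65.3 and 48.9 CPM in CYT libraries and fell by 1.05 log2 units (SE 0.28, edgeR adjusted p = 0.0220). ECT2, the RhoA exchange factor that centralspindlin recruits, was at 62.99, 78.9 and 73.1 CPM in control and 24.2, 62.1 and 24.8 CPM in CYT libraries, apart but with CYT replicate 2 next to control, and was not called (log2 fold change -0.95, edgeR adjusted p = 0.107). It was called lower without CYT replicate 2 (log2 fold change -1.56, edgeR adjusted p = 0.00244) and with the replicate block (adjusted p = 0.0182). TPX2, the activator of AURKA on spindle microtubules, was at 299.7, 263 and 294 CPM in control and 206, 207 and 195 CPM in CYT libraries, with little spread and no overlap, and was not called (log2 fold change -0.50, edgeR adjusted p = 0.172), but was with the GC content and length correction (edgeR adjusted p = 0.0354). Without CYT replicate 3, among other libraries, RACGAP1 (edgeR adjusted p = 0.0923) and ANLN (0.0820) were not called. The other 5, the midzone bundler PRC1, the abscission factor CEP55, and the spindle proteins DLGAP5, HMMR and ASPM, overlapped between the groups, with log2 fold changes from -0.44 (CEP55) to 0.18 (ASPM). Without CYT replicate 2, CEP55 (log2 fold change -0.88, edgeR adjusted p = 0.0369) and DLGAP5 (log2 fold change -0.80, edgeR adjusted p = 0.0482) were called lower.

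Condensin I is the ring that compacts mitotic chromosomes, and 2 of its 5 subunits listed here were called lower. Its kleisin subunit NCAPH was at 84.9, 74.6 and 66.1 CPM across control libraries 1, 2 and 3, against 15.4, 15.02 and 12.6 CPM across CYT libraries 1, 2 and 3 and fell by 2.39 log2 units (SE 0.29, edgeR adjusted p = 0.000867). The HEAT-repeat subunit NCAPD2 was at 549, 423 and 383 CPM in control and 222, 215 and 225 CPM in CYT libraries and fell by 1.03 log2 units (SE 0.27, edgeR adjusted p = 0.0191). Each group was tight in NCAPH, and so were the CYT libraries of NCAPD2, whose call was lost without control replicate 1, CYT replicate 1 or CYT replicate 3. The second HEAT-repeat subunit NCAPG was at 53.8, 96.96 and 57.8 CPM in control and 34.7, 74.7 and 35.6 CPM in CYT libraries (log2 fold change -0.52, edgeR adjusted p = 0.353), and the ATPase SMC4 at 55.1, 90.5 and 59.5 CPM in control and 42.3, 79.9 and 49.6 CPM in CYT libraries (log2 fold change -0.26, edgeR adjusted p = 0.619). The ATPase SMC2 was at 24.7, 45.3 and 24.9 CPM in control and 32.6, 93.1 and 45.4 CPM in CYT libraries (log2 fold change 0.85, edgeR adjusted p = 0.177), and it was called higher under blocking by replicate number (log2 fold change 0.77, edgeR adjusted p = 0.0356). Without CYT replicate 2, NCAPG was called lower (log2 fold change -0.997, edgeR adjusted p = 0.0397) and SMC2 was further from the threshold (log2 fold change 0.29, edgeR adjusted p = 0.543). MKI67, the Ki-67 protein of the chromosome surface and the usual histological marker of dividing cells, was at 70.7, 60.1 and 75.8 CPM in control and 103, 64.2 and 89.5 CPM in CYT libraries, with CYT replicate 2 inside the control range and CYT replicates 1 and 3 above it. It was not called (log2 fold change 0.31, SE 0.30, edgeR adjusted p = 0.461), and no alternative called it.

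Because called and uncalled genes stood side by side in the same complexes, the FPKM ratio of 7 pairs of partners or paralogs was taken within each library, where the scaling between libraries cancels. The pairs were chosen after their values were seen, so the ratios are a description. The ratio of NUF2 to NDC80, partners in a dimer, was 0.975, 0.954 and 0.805 across control libraries 1, 2 and 3, against 0.188, 0.280 and 0.252 across CYT libraries 1, 2 and 3, near equal in control cells and far below it after CYT treatment. For their neighbours SPC25 to SPC24 it was 1.51, 3.45 and 3.62 in control and 1.36, 0.983 and 0.816 in CYT libraries, where control replicate 1 came close to CYT replicate 1. For CCNB1 to CDK1 it was 2.04, 1.42 and 2.21 in control and 0.437, 0.205 and 0.275 in CYT libraries, so cyclin B1 RNA went from above to below that of its kinase.
The paralogs moved apart in the same way. The ratio of BUB1B to BUB1 was 0.404, 0.326 and 0.488 across control libraries 1, 2 and 3, against 0.0788, 0.0358 and 0.0442 across CYT libraries 1, 2 and 3. The ratio of AURKB to AURKA was 0.788, 0.557 and 0.681 in control and 0.190, 0.0651 and 0.158 in CYT libraries, and that of CDC25B to CDC25C was 2.91, 1.54 and 1.78 in control and 0.563, 0.379 and 0.639 in CYT libraries. For the condensin subunits NCAPH and SMC4 it was 4.74, 2.54 and 3.42 in control and 1.12, 0.578 and 0.778 in CYT libraries. The fold by which the mean ratio was lower in CYT cells ranged from 2.72 for SPC25 to SPC24 to 7.67 for BUB1B to BUB1. A library's trend with GC content, described below, need not cancel in such a ratio. CDC25B (59.3%) and CDC25C (47.6%) differ in GC content, and BUB1B (43.2%) and BUB1 (42.5%) little. In both groups the library numbered 2 had the lowest ratio for all pairs but NUF2 to NDC80 and SPC25 to SPC24. The part of GC content in the ratios was not tested.

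**Figure D3:**
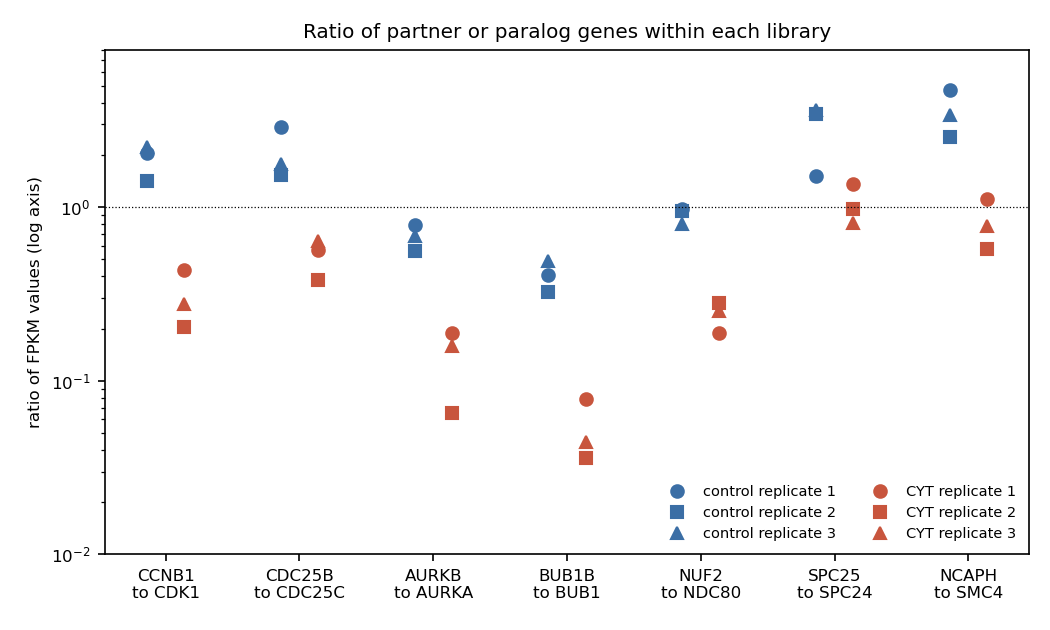
Ratio of FPKM values of 7 gene pairs on a log axis in each library, control in blue and CYT in red, with the replicate number as the marker shape and a dotted line at a ratio of 1. Every red point lies below every blue point of its pair, most narrowly for SPC25 to SPC24.

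Compared per length, CKS2 had the highest level of the 60 genes in control cells, 224 ± 74.8 FPKM (SD, n = 3), and UBE2S, at 219.9 ± 45.3 FPKM (SD, n = 3), did not differ from it beyond their spread. CDC20 (109 ± 22.2), PTTG1 (106 ± 15.1) and UBE2C (98.1 ± 14.2) came next, and their spreads overlapped too. The lowest was KNL1, at 0.919 ± 0.446 FPKM (SD, n = 3). After CYT treatment the order at the top was CKS2 (220.2 ± 29.4 FPKM, SD, n = 3), PTTG1 (109.6 ± 5.78), CDK1 (91.1 ± 48.8) and CKS1B (65.8 ± 29.6), where the spread of CDK1 overlaps those of PTTG1 and CKS1B. UBE2S, at 43.7 ± 21.5 FPKM, was then at rank 7, and CDC20 (34.3 ± 8.98) at rank 8. BUB1B went from 4.88 ± 0.889 to 0.492 ± 0.129 FPKM (SD, n = 3) and became the lowest of the 60.

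Some of these values can be shared with other annotated genes, since the counting program and its use of strand and of repeated matches are not given in the sources used here. UBE2S has pseudogenes: UBE2SP1 had 7333, 5070 and 3292 counts in control and 1000, 349 and 1032 counts in CYT libraries. The counts of both UBE2S pseudogenes, which are separate from that of UBE2S, summed to between 41.8% and 50.9% of its size, and UBE2S with its copies had a log2 ratio of CYT to control of -2.39. CKS1B is more exposed. Its pseudogene CKS1BP3 had 982, 1914 and 1121 counts in control and 2673, 2583 and 2525 counts in CYT libraries, and the separate counts of all its copies summed to between 30.4% and 109% of the size of the CKS1B count. CKS1B with its copies was at 243, 531 and 355 CPM in control and 494, 669 and 519.7 CPM in CYT libraries, a log2 ratio of 0.58, still with overlap. For AURKA, PTTG1, CDC20, UBE2C, RACGAP1, NCAPG and ANAPC1 the copies' separate counts summed to at most 4.596% of the size of the member's count.
By the table's coordinates, 6 of the 21 called genes overlap an annotated gene with at least 50 counts in a library: CCNA2 (EXOSC9), NUF2 (RGS5), FZR1 (MFSD12), UBE2S (RPL28), ANLN (KIAA0895) and NCAPD2 (MRPL51). All of these partners lie on the opposite strand in GENCODE 29 and none was called. RPL28 had 22292, 11143 and 21205 counts in control and 19251, 4289 and 13982 counts in CYT libraries, so it too was lowest in CYT replicate 2. MFSD12 had 2287, 2101 and 1919 counts in control and 1069, 272 and 834 counts in CYT libraries. Of uncalled members, CENPN overlaps AC092718.4 on its own strand, which was called higher (log2 fold change 1.32, edgeR adjusted p = 0.0251). CENPN also overlaps CMC2 on the opposite strand. CMC2 had 809, 1598 and 761 counts in control and 1036, 1737 and 1018 counts in CYT libraries. CENPN itself had 919, 1673 and 780 counts in control and 1185, 1934 and 1287 counts in CYT libraries. CENPA overlaps SLC35F6 on its own strand, which had 1632, 428 and 830 counts in control and 782, 498 and 857 counts in CYT libraries. PKMYT1 overlaps PAQR4, which had 1544, 1155 and 1259 counts in control and 623, 148 and 831 counts in CYT libraries and was lowest in CYT replicate 2, as PKMYT1 was. PKMYT1 also overlaps KREMEN2, at 103, 73 and 81 counts in control and 217, 51 and 229 counts in CYT libraries. Like PKMYT1, KREMEN2 was below all controls in CYT replicate 2 and above them in CYT replicates 1 and 3. CDC25C overlaps FAM53C, which was called higher (log2 fold change 2.26, edgeR adjusted p = 0.00149). The part of these neighbours in the members' counts was not tested.

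The libraries numbered 2 stood apart along the base composition of the genes. Across the 60 genes, the difference of CYT replicate 2 from the mean of CYT replicates 1 and 3, in log2 CPM, correlated with the GC content of the longest transcript with Pearson's r = -0.85 (Spearman's rho -0.79). For control replicate 2 against control replicates 1 and 3, r was -0.75 (rho -0.75). The 60 points share 1 set of libraries, so this is a description across genes, and over 15542 tested genes r was -0.74 and -0.51. The extremes in CYT replicate 2 were PKMYT1 (GC content 66.2%, difference -2.58), FZR1 (64.0%, -2.17), UBE2S (55.7%, -1.72) and, at the other end, PLK4 (38.4%, 1.54). Members had a median GC content of 43.4%, against 48.6% for tested genes, and it was 44.3% in the 21 called genes and 41.8% in the other 39. Across the 60 genes the log2 difference between CYT and control correlated with GC content with r = -0.27, and with r = -0.15 without the libraries numbered 2.

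**Figure D4:**
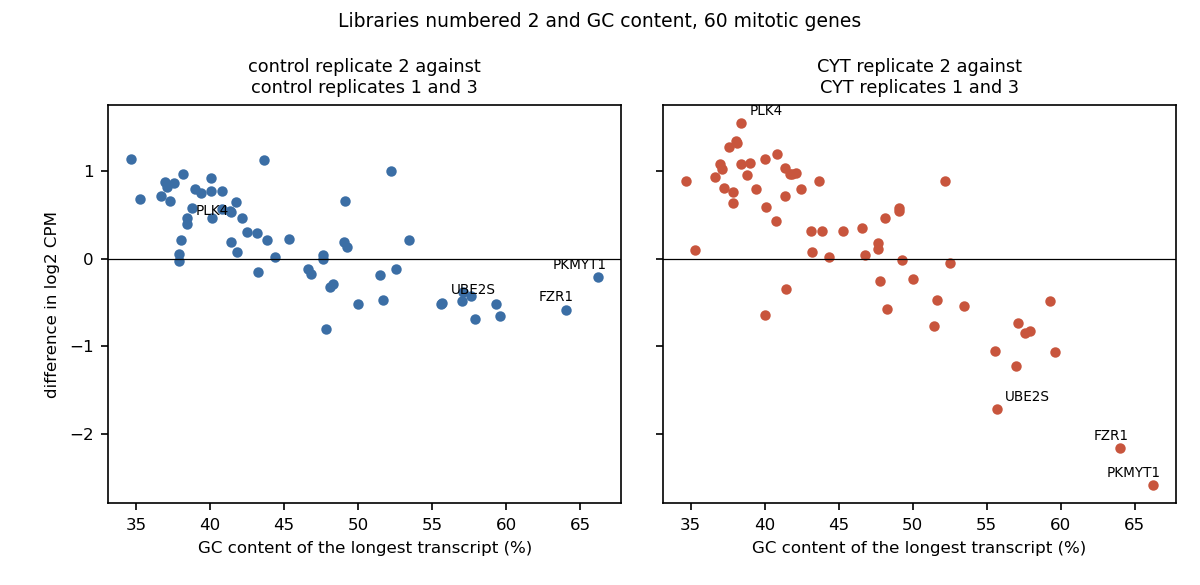
Difference in log2 CPM of the library numbered 2 from the mean of the other 2 libraries of its group, against GC content of the longest transcript, for the 60 genes in control (left) and CYT (right). In both panels points fall from upper left to lower right, with r = -0.75 in control and -0.85 in CYT.

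Without both libraries numbered 2, an alternative added after this was seen, 30 members were called lower and 3 higher (CDK1, PKMYT1 and CENPN), against 19.6% and 21.5% of the 15847 genes then tested. Their median log2 fold change was -0.65.

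A further 88 genes of the same machinery were listed by function and gave a more mixed picture. Of these, 14 were called lower and 8 higher, or 15.9% and 9.09%, against 12.9% and 15.7% of tested genes, and their median log2 fold change was -0.19. That median was -0.0997 without CYT replicate 1, -0.30 without CYT replicate 2, -0.0530 without CYT replicate 3 and -0.0454 with upper-quartile factors. The 10 called genes with the largest absolute fold changes were 7 lower and 3 higher genes. Lower were MAD1L1, the checkpoint partner of MAD2 (log2 fold change -2.25, edgeR adjusted p = 0.00554), the centromere protein CENPI (log2 fold change -2.19, edgeR adjusted p = 0.00494), the mitotic kinase NEK6 (log2 fold change -1.99, edgeR adjusted p = 0.00170), MIS18A, which helps load CENPA (log2 fold change -1.58, edgeR adjusted p = 0.0281), TRIP13, the ATPase that recycles MAD2 (log2 fold change -1.44, edgeR adjusted p = 0.00605), the microtubule-binding kinetochore subunit SKA3 (log2 fold change -1.31, edgeR adjusted p = 0.0131) and the anaphase-promoting complex subunit ANAPC10 (log2 fold change -1.26, edgeR adjusted p = 0.0233). Higher were the cohesion genes ESCO2 and CDCA5 and the centromere gene CENPT. ESCO2, which acetylates cohesin in S phase, was at 8.62, 18.95 and 9.85 CPM across control libraries 1, 2 and 3, against 36.7, 92.7 and 41.6 CPM across CYT libraries 1, 2 and 3 (log2 fold change 2.19, SE 0.47, edgeR adjusted p = 0.00777). CDCA5, which encodes sororin and keeps cohesin on replicated DNA, was at 234, 192 and 210.2 CPM in control and 576, 521 and 628 CPM in CYT libraries (log2 fold change 1.44, SE 0.26, edgeR adjusted p = 0.00389). CENPT, a link between chromatin and the NDC80 complex, was at 43.6, 17.5 and 30.8 CPM in control and 91.3, 49.04 and 78.8 CPM in CYT libraries (log2 fold change 1.25, SE 0.40, edgeR adjusted p = 0.0417). In ESCO2, CDCA5 and CENPT every CYT library was above every control library. The calls of MAD1L1, CENPI, NEK6, TRIP13, ESCO2 and CDCA5 held in all 15 alternatives, and those of MIS18A, SKA3, ANAPC10 and CENPT were lost in some leave-one-out fits.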

How the data were processed

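mRNA was sequenced from 3 control and 3 CYT-treated MDA-MB-231-DR libraries on a Novaseq instrument. The authors removed low-quality, adapter and rRNA reads, aligned the rest with Hisat2, computed FPKM with Stringtie, and deposited 1 table with raw counts and FPKM per gene. The submitters' processing notes name hg38 and FastQC 0.12.1, and the counting program is not given in the sources used here.
Counts were filtered with filterByExpr (minimum count 10), TMM-normalized and tested with edgeR 4.0.16 (quasi-likelihood F test, unblocked, R 4.3.3) between CYT and control over 15572 genes, with Benjamini-Hochberg adjustment at 0.05 and an absolute log2 fold change of 1 as a second criterion. The biological coefficient of variation was 37.5%. The test code was tested on simulated data. The 60 genes, the further lists, the pairs and the rules for naming genes were chosen with earlier results of these data known. All members are accounted for, and of the further mitotic genes the 10 with the largest absolute log2 fold change among those called are named.
Alternatives were DESeq2 1.42.0, upper-quartile factors, no filter, limma 3.58.1 on log2(FPKM + 1) and log2(FPKM + 0.1), the replicate number as a block, each library left out, and GC content and length offsets with and without the block. Leaving out both libraries numbered 2 was added after seeing the data. The labels number the replicates but do not say that same-numbered libraries are pairs, and the block was used in alternatives only. Deviations from the group means correlated in every same-numbered pair (r = 0.188, 0.458 and 0.124). Control replicate 1 with CYT replicate 3 gave 0.303 and control replicate 3 with CYT replicate 1 gave 0.201. These values do not settle whether the libraries were paired. The highest, 0.458, is that of the libraries numbered 2, which shared a trend with GC content.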

Additional observations from a re-analysis of the deposited data

How the results depend on the processing

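The number of members called lower (21) stayed within 1.5 times of that value except without CYT replicate 3 (13) and with the GC content and length correction (37, or 36 with the replicate block), and it ranged from 13 to 29 when 1 library was left out. The number called higher (0) was 1 with DESeq2, 1 with upper-quartile normalization, 3 with the replicate block, 3 without both libraries numbered 2, 2 with the GC content and length correction and 3 with that correction and the block, and 0 to 1 when 1 library was left out. The median of the members stayed negative in every setting. Of the further mitotic genes, the 14 lower and 8 higher became 23 and 13 without both libraries numbered 2, 24 and 16 with the GC content and length correction, and 23 and 15 with the block added, and ranged over 5 to 23 and 2 to 9 when 1 library was left out. The count over all genes (4451) was 7239 with the correction and 7112 with the block added, and 2891 to 5752 when 1 library was left out. The causes were not tested. Upper-quartile factors moved the median of all genes from 0.0064 to 0.16.
Of the 21 calls, 13 held in all 15 alternatives and those of BUB3, MAD2L1, CENPE, FZR1, UBE2C, RACGAP1, ANLN and NCAPD2 were lost in some, for CENPE also with limma and otherwise when 1 library was left out. Leaving out CYT replicate 3 ended all 8 of these calls. The replicate block ended none of the 21 calls.
The sign of the log2 fold change turned in 8 uncalled members and in no called one. CKS1B (0.25) was at -0.21 with GC content and length correction, -0.14 with GC content and length correction with replicate block and between -0.12 and 0.69 when 1 library was left out. CKS2 (-0.03) was at 0.0063 with DESeq2, 0.11 with upper-quartile normalization, 0.0228 with limma on log2(FPKM + 1), 0.0231 with limma on log2(FPKM + 0.1), 0.0012 with replicate block, 0.30 without both libraries numbered 2 and between -0.25 and 0.15 when 1 library was left out. PLK4 (0.28) was at -0.24 without both libraries numbered 2 and between -0.43 and 0.60 when 1 library was left out. AURKA (0.0066) was at -0.0707 with no filter, -0.13 without both libraries numbered 2, -0.18 with GC content and length correction, -0.17 with GC content and length correction with replicate block and between -0.13 and 0.13 when 1 library was left out. KNL1 (-0.21) was between -0.80 and 0.16 when 1 library was left out. SGO2 (0.12) was between -0.24 and 0.58 when 1 library was left out. PTTG1 (0.04) was at -0.0356 with no filter, -0.44 with GC content and length correction, -0.43 with GC content and length correction with replicate block and between -0.0486 and 0.0663 when 1 library was left out. ASPM (0.18) was between -0.23 and 0.48 when 1 library was left out.
The CYT values of BUB1B rest on 35 to 63 counts a library. Of the 39 uncalled members, 10 were called with the replicate block. Whether depth limited the calls among the 39 was not tested.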
